A study of Mus musculus with 6 samples.

Results

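Bdh1, Acat1 and Slc16a1 are 3 genes of ketone body production and export, taken by name out of the 24239 gene symbols that the array annotation lists outside long intergenic non-coding RNAs. The array carried 5 probes for them, 3 for Bdh1 and 1 each for Acat1 and Slc16a1, among 55681 probes that are not controls. Male B6C3F1 mice, 7 weeks old, received trichloroethylene (TCE, a chlorinated solvent that causes liver tumors in mice) dissolved in corn oil, at 1000 mg/kg b.w. per day by mouth for 5 days. The controls were mice of the same strain, sex and age that received corn oil alone. Total RNA of whole liver from 3 control and 3 TCE mice was measured on 1-colour arrays, each holding the RNA of 1 mouse. The array of control mouse 1 was alone on its slide and scan, while a second slide held the rest, mice of both groups among them.

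Ketone bodies are made in the mitochondria of hepatocytes from the acetyl-CoA that fatty acid oxidation yields, above all during fasting. Acat1 is the mitochondrial thiolase that joins acetyl-CoA units to acetoacetyl-CoA, and Bdh1 reduces acetoacetate, formed further along the pathway, to 3-hydroxybutyrate. Slc16a1, the monocarboxylate transporter MCT1, moves ketone bodies and lactate across the plasma membrane, whereas Oxct1 starts the use of ketone bodies in other tissues.

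By its brightest probe, Bdh1 was higher in every TCE mouse than in any control, as it was by the second, while the third overlapped between the groups. The Slc16a1 signal was lower in every TCE mouse than in any control, and that of Acat1 overlapped. None of these differences was past an adjusted p of 0.05 by limma, which fits a linear model to each probe and borrows the error estimate from all of them. Values are log2 signals after quantile normalization, and detection required that all 3 arrays of either group were well above background. All 5 probes were detected, among 22731 on the array. Of the 5 probes, 0 were past the threshold, compared with 2.01% of all detected probes, and 3 had an unadjusted limma p under 0.05, compared with 17.9%. The groups did not overlap in 3 probes, a separation seen in 25.7% of detected probes (15.5% with the TCE group higher and 10.2% with it lower). The Slc16a1 probe is in both counts of 3, although it was detected through the control group and not well above background in TCE mouse 2. With 3 mice against 3 an exact permutation test (two-sided) cannot go below 0.1, and the number of arrays limits the precision. In bulk liver, fewer cells of a type and less RNA per cell cannot be told apart.

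Acat1, which acts first in the pathway, was measured by a probe on chromosome 9 of mm9 (chr9:53389868-53389927). Its log2 signal was 13.40, 13.36 and 13.51 in control mice 1, 2 and 3 and 13.58, 13.95 and 13.47 in TCE mice 1, 2 and 3. TCE mouse 2 was the highest, and TCE mouse 3 lay below control mouse 3, so that the groups overlapped. The mean was 13.43 ± 0.08 (SD, n = 3) in controls and 13.67 ± 0.25 (SD, n = 3) in the TCE group. The log2 fold change was 0.24 with a standard error of 0.16 and a 95% confidence interval from -0.13 to 0.61 (limma adjusted p = 0.473, exact permutation p = 0.2). Without TCE mouse 2 it was 0.10, and within the slide that held both groups it was 0.23. The fit within that slide is the same as the fit without control mouse 1.

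Bdh1 had 3 probes on chromosome 16 of mm9, on the plus strand. The probe with the highest mean signal (chr16:31457378-31457437), which stood for the gene, had a log2 signal of 14.55, 14.46 and 14.22 in control mice 1, 2 and 3 and of 14.86, 14.89 and 14.76 in TCE mice 1, 2 and 3. The lowest TCE mouse lay 0.21 above the highest control, and the TCE mice were closer to each other than the controls were. From 14.41 ± 0.17 to 14.84 ± 0.07 (SD, n = 3 each), the log2 fold change was 0.43 with a standard error of 0.13 and a 95% confidence interval from 0.12 to 0.74, which is 1.35-fold (limma adjusted p = 0.165, exact permutation p = 0.1). Within the slide that held both groups the log2 fold change was 0.50 (limma adjusted p = 0.220, and 0.0980 to 0.367 over its alternatives).

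The second Bdh1 probe (chr16:31457249-31457308) had a log2 signal of 13.49, 13.43 and 13.19 in control mice 1, 2 and 3 and of 14.07, 14.19 and 13.78 in TCE mice 1, 2 and 3. All TCE mice were again above all controls, and the log2 fold change was 0.65 (standard error 0.16, limma adjusted p = 0.108). The third probe (chr16:31458195-31458254) gave 10.27, 10.27 and 9.49 in controls and 10.51, 10.52 and 10.04 in the TCE group. Here the groups overlapped, since TCE mouse 3 lay below control mice 1 and 2, and the log2 fold change was 0.35 (standard error 0.26, limma adjusted p = 0.536). Without control mouse 3, the lowest of the 6, it was 0.09. In all 3 probes mouse 3 was the lowest of its group, and Pearson's r between pairs of Bdh1 probes over the 6 mice was 0.78 to 0.97. These probes share their RNA samples and target a single gene, so they are not independent measurements of the mice.

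Slc16a1 was measured by a probe on chromosome 3 of mm9 (chr3:104462276-104462335). Its log2 signal was 6.15, 5.79 and 5.66 in control mice 1, 2 and 3 and 5.40, 4.66 and 5.03 in TCE mice 1, 2 and 3. Every TCE mouse was below every control, with TCE mouse 2 the lowest. The probe was dim, with a mean signal at percentile 5.46 of the detected probes, and was well above background on 3 of 3 control arrays and 2 of 3 TCE arrays, TCE mouse 2 being the exception. It was detected through the control group, where it was higher, and the value of TCE mouse 2 was not measured above background, so that the size of the difference is uncertain and its interval and p are to be read with that limit. The mean was 5.87 ± 0.25 (SD, n = 3) in controls and 5.03 ± 0.37 (SD, n = 3) in the TCE group. The fitted log2 fold change was -0.84 with a standard error of 0.23 and a 95% confidence interval from -1.38 to -0.29 (limma adjusted p = 0.135, exact permutation p = 0.1). With the normexp method of background correction, which shrinks differences at low signal, it was -0.31, without TCE mouse 2 it was -0.65, and within the slide that held both groups -0.70.

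**Figure D1:**
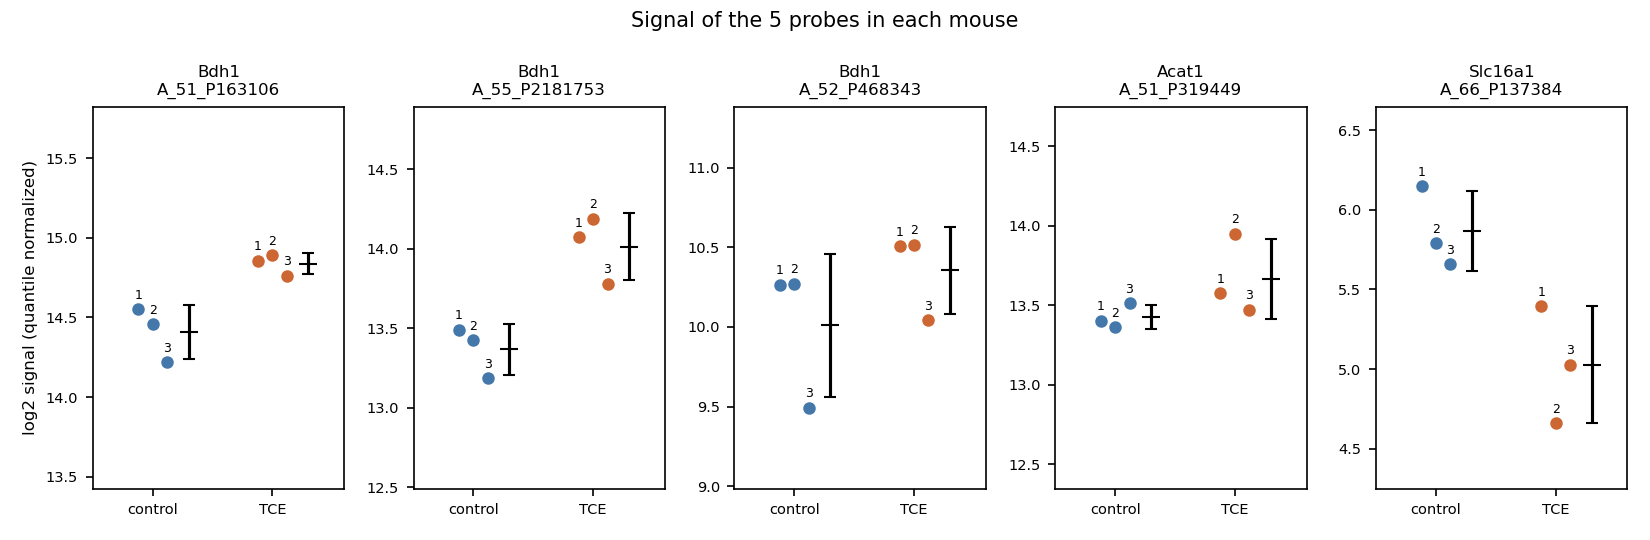
Log2 signal (vertical axes, each spanning the same number of log2 units) of the 5 probes of Bdh1, Acat1 and Slc16a1 in control (blue) and TCE (orange) mice, numbered by mouse, with the group mean and SD in black (n = 3). The groups are apart in the first and second Bdh1 probe and in Slc16a1, and overlap in the others. For Slc16a1, TCE mice range from 4.66 to 5.40 and controls from 5.66 to 6.15. Its signal in TCE mouse 2 was not well above background.

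Over the 6 mice, Pearson's r of the log2 signal was 0.58 between Bdh1 and Acat1, -0.67 between Bdh1 and Slc16a1 and -0.81 between Acat1 and Slc16a1. The values with Slc16a1 include TCE mouse 2, where its signal was not well above background. The mice fall into the treatment groups, which these values include. Among 12480 other genes detected on all 6 arrays, those with the profile most like Bdh1 were Ifit1bl2 (r = 0.999), Dhx40 (r = 0.995) and Irak1 (r = 0.994). The nearest inside the pathway lists described below were Acad11, an acyl-CoA dehydrogenase (r = 0.993), and Mpc2, a subunit of the mitochondrial pyruvate carrier (r = 0.981). For Acat1 they were Hs3st6 (r = 0.995), Nmt2 (r = 0.993) and Marchf8 (r = 0.992), and in the lists Etfb, a subunit of the electron transfer flavoprotein (r = 0.931), and Hadh, a dehydrogenase of fatty acid oxidation (r = 0.904). For Slc16a1, with the same limit in TCE mouse 2 and compared with 12481 genes, they were AI182371 (r = 0.992), Arhgdib (r = 0.990) and Phf8 (r = 0.988), and in the lists Fah, the last enzyme of tyrosine breakdown (r = 0.882), and Acadsb, an acyl-CoA dehydrogenase of isoleucine breakdown (r = 0.859). With 6 mice and this many genes, high values of r arise readily, and they describe these mice only.

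The list of ketone body synthesis and use had 13 genes, Bdh1 and Acat1 among them, and 10 were detected. Of these 10, 0 were past an adjusted p of 0.05 by limma, compared with 2.39% of all 13284 detected genes, and 4, Bdh1 among them, were past an unadjusted p of 0.05 by the methods' t-test, compared with 19% of detected genes. The median log2 fold change of the list was -0.18, compared with 0.02 for all detected genes. Of the 10 values 5 were above 0, those of Bdh1 and Acat1 among them. The 5 below 0 were those of Bdh2, Acat2, Acat3, Hmgcs1 and Aacs. The list thus mixes enzymes of ketone body synthesis with others, and its median does not describe that synthesis alone. In 6 of the 10 genes, Bdh1 among them, the groups did not overlap, 3 with the TCE mice above and 3 with them below, a separation seen in 27.9% of detected genes.

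Relatives of the named enzymes that sit in the cytosol had negative values that missed the threshold. Bdh2, a cytosolic dehydrogenase related to Bdh1, had a value of -0.40 (limma adjusted p = 0.172). Acat2, the cytosolic thiolase, and its neighbor Acat3 had -0.45 and -0.38 (limma adjusted p = 0.298 and 0.263). In these 3 genes every TCE mouse was below every control, as in 10.8% of detected genes. The gap between the groups was 0.165 for Bdh2, but 0.033 for Acat3 and 0.0032 for Acat2. Hmgcs1, the cytosolic synthase of the cholesterol pathway, had -0.44, and Aacs, which returns acetoacetate to lipid synthesis, had -0.64, both with overlapping groups. With each mouse left out Hmgcs1 ran from -0.65 to -0.27, Aacs from -0.92 to -0.33 and Acat2 from -0.65 to -0.29. Oxct1 was close to 0, at 0.03 with a confidence interval from -0.31 to 0.36. Hmgcll1, Oxct2a and Oxct2b were not detected.

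**Figure D2:**
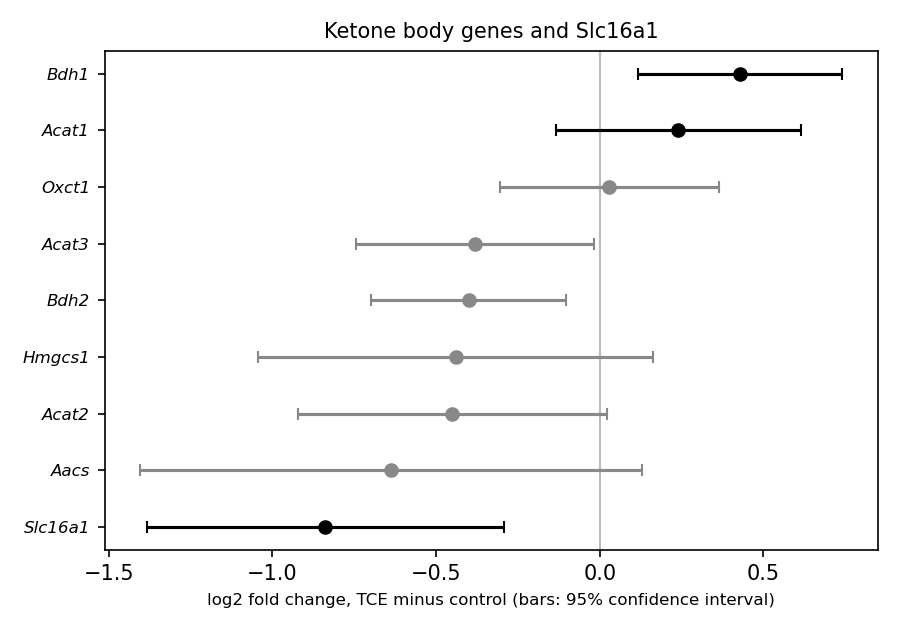
Log2 fold change (horizontal axis, TCE minus control) with its 95% confidence interval from limma for the 8 genes of ketone body synthesis and use named in the text and for Slc16a1, with Bdh1, Acat1 and Slc16a1 in black. Values run from -0.84 for Slc16a1 to 0.43 for Bdh1, and none was past an adjusted p of 0.05.

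Of the monocarboxylate transport genes 15 were detected, Slc16a1 among them, and 1 rose while 0 fell, compared with 1.8% and 0.587% of all detected genes. The gene that rose was Slc16a11, a member of the same family, with a log2 fold change of 0.92 (standard error 0.15, limma adjusted p = 0.0380). Its call was lost in 6 of 6 fits with 1 mouse left out. Without control mouse 1 the transporter past the threshold was instead Slc16a5, named here after its values were seen, with 1.90 (limma adjusted p = 0.0452, and up to 0.509 in its other alternatives) compared with 1.36 over all mice (limma adjusted p = 0.209). Bsg, the chaperone that carries Slc16a1 to the plasma membrane, had a value of 0.39 (limma adjusted p = 0.253), with every TCE mouse above every control. Emb, a further chaperone of the family, was not detected. The median of the list was 0.15.

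Mitochondrial fatty acid oxidation, which supplies acetyl-CoA to ketogenesis, had 23 detected genes, of which 8 rose and 0 fell, compared with the same 1.8% and 0.587%, and in 21 every TCE mouse was above every control, compared with 17.1%. The median log2 fold change was 0.54. Cpt1b, a carnitine palmitoyltransferase known from muscle, had a fitted change of 2.34 (standard error 0.28, limma adjusted p = 0.0188), but was well above background on 2 of 3 control arrays, and under normexp its change was 1.07, below the 1.17 of Eci1. Crat, carnitine acetyltransferase, changed by 1.78 (limma adjusted p = 0.0428), and under normexp by 0.91 with the call lost (limma adjusted p = 0.0799, and 0.0340 to 0.167 over its alternatives). Eci1, an enoyl-CoA isomerase, changed by 1.16 (limma adjusted p = 0.00734), Slc25a20, the carnitine-acylcarnitine carrier, by 1.05 (limma adjusted p = 0.0282) and Decr1, a dienoyl-CoA reductase, by 1.02 (limma adjusted p = 0.0282). Acadm, Hadhb and Eci2 also rose. With each mouse left out in turn 1 to 5 genes of the list were past the threshold. In the fit without control mouse 1, which is that within the slide that held both groups, there were 2. Eci1 passed in each of these fits, whereas the calls of Crat and Hadhb were lost in all 6 fits with a mouse left out, those of Slc25a20, Decr1, Acadm and Eci2 in 5 and that of Cpt1b in 3.

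Regulators of ketogenesis included 17 detected genes, of which 3 rose and 1 fell, compared with 1.8% and 0.587% of all detected genes, and their median log2 fold change was 0.19. Fgf21, a liver hormone of fasting, rose by 3.38 (standard error 0.36, limma adjusted p = 0.0115), from 9.09, 7.96 and 8.43 in control mice 1, 2 and 3 to 11.62, 12.44 and 11.56 in TCE mice 1, 2 and 3. Pdk4, a kinase that turns off pyruvate dehydrogenase, rose by 2.96 (limma adjusted p = 0.00657), and Angptl4, a secreted inhibitor of lipoprotein lipase, by 1.04 (limma adjusted p = 0.0191). Foxa2, a transcription factor of hepatocytes, fell by 1.07 (limma adjusted p = 0.0319), from 12.23, 12.37 and 12.65 to 11.45, 11.45 and 11.15. With 1 mouse left out, 1 to 3 of the 4 genes were past the threshold. Pdk4 passed in each of these fits, and the call of Foxa2 was lost in all of them, that of Angptl4 in 4 and that of Fgf21 in 1. Among 22 detected genes of ketogenic amino acid breakdown 0 were past the threshold by limma and 7 were past an unadjusted p of 0.05 by the methods' t-test, compared with 19% of detected genes, and the median was -0.04.

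Markers of other cell types were compared in the same arrays. All 10 hepatocyte markers were detected, and 0 were past the threshold, compared with 2.39% of all detected genes. Their summed signal in the TCE group was 1.01 times that of the controls. Erythroid markers, of which 6 were detected, had a summed signal, on the linear scale, of 355263, 282560 and 278105 in control mice 1, 2 and 3 and of 223562, 112088 and 317040 in TCE mice 1, 2 and 3. TCE mouse 2, which had the highest Acat1 signal and a Slc16a1 signal not well above background, had the lowest of these sums. Alas2, the erythroid enzyme of heme synthesis, fell by 0.91 (limma adjusted p = 0.0215), whereas the most abundant marker, Hba-a2 overlapped between the groups. The endothelial sum was lowest in TCE mouse 1, at 13386.7, compared with 23339.7 to 25847.4 in the other mice. The part of blood and endothelial RNA in the values of Bdh1, Acat1 and Slc16a1 was not tested. Markers of Kupffer, endothelial, stellate, bile duct and lymphoid cells held 0 genes past the threshold by limma, compared with the same 2.39%. The nearest, named after its values were seen, was the stellate cell marker Lrat, with a log2 fold change of -1.35 (standard error 0.27, limma adjusted p = 0.0676) and every TCE mouse below every control, and Cd3e was the other marker of these lists with an unadjusted limma p under 0.05. Among the 10 hepatocyte markers Apoa1, Tat and Hpx had such a p. The share over all detected genes was 19.1%. In all, 0 adipocyte and 0 skeletal muscle markers were detected.

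Promoter sequences were available for Bdh1 and Slc16a1 and not for Acat1. Bdh1 and Slc16a1 had probes whose groups were apart in opposite directions. The Slc16a1 probe was detected through the control group and not well above background in TCE mouse 2, which limits that separation. The sequences are the 250 bases before the transcript start in RefSeq (GRCm38.p6, a later build than the mm9 of the probes), which lists a pair of starts for Bdh1. Capitals mark motif matches on either strand, and positions count back from the start.
Bdh1, chr16:31422047-31422296, plus strand: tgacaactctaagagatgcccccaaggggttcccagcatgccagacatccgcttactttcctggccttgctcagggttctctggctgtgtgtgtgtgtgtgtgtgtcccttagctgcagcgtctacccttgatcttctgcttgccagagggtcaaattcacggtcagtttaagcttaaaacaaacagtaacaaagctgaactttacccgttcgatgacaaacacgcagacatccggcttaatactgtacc
Bdh1, chr16:31428503-31428752, plus strand: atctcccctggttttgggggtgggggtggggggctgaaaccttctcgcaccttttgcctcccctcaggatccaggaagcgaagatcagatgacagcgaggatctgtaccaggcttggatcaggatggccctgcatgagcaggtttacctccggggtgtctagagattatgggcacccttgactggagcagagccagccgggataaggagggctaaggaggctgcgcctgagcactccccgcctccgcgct
Slc16a1, chr3:104638414-104638663, plus strand: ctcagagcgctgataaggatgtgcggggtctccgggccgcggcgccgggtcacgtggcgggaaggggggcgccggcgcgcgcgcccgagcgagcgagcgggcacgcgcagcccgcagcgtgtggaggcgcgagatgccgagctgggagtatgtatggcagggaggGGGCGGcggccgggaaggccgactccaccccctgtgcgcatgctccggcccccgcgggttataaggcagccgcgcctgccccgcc
The Slc16a1 promoter was rich in G and C, at 76.4% (percentile 97.2 among 32851 promoters), and held 37 CpG dinucleotides, compared with a median of 52.4% and 6. The Bdh1 promoters had 49.6% and 60.8%, with 7 and 9 CpG dinucleotides. The motifs searched were the nuclear receptor motif AGGTCA, found in 14.0% of all promoters of this length, a PPAR response element made of that motif repeated in the same direction after 1 base (0.0335%), the GC box GGGCGG (32.7%), the TATA box TATAAA (12.4%), the CCAAT box CCAAT (33.8%) and the FOXA motif TGTTTAC (3.17%). The match found was a GC box in the Slc16a1 promoter, starting 85 bases before the start. A match is no measure of binding, and the missing letters say nothing of a factor's binding elsewhere.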

How the data were processed

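Liver RNA of 3 control and 3 TCE mice was measured on 1-colour arrays. The deposited scanner files, made by the authors with Feature Extraction 10.7.1.1, give a background-corrected intensity for each spot. The authors also deposited log2 group means after quantile normalization, here an alternative only. Here, control spots were left out and outlier spots (123 to 189 per array) set to missing, log2 of the intensity was taken without a pseudocount, averaged per probe and quantile normalized. Between 23537 and 24965 probes per array were well above background, and 0 spots were saturated. A probe's detection flag came from its spots without an outlier flag, most of which had to be well above background. This reading was settled on after others had been tried, so that the detected probes numbered the same as in an earlier analysis of these data. Detected probes were tested with limma 3.58.1 (R 4.3.3 with statmod 1.5.0 and, for reading, the package data.table, version 1.17.8; lmFit and eBayes, two-sided, Benjamini-Hochberg). Each gene was represented by its brightest detected probe. Probe coordinates come from the array design (mm9), and exons and UTRs were not analysed here. Symbols of genes with like profiles were updated by gene ID through RefSeq (GRCm38.p6).

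The genes named are Bdh1, Acat1 and Slc16a1 with every probe, the detected genes of the ketone body list, the 5 largest changes, or fewer, past the threshold in each other list, Bsg, Emb and relatives of the enzymes whatever their value, and the genes with the highest r. Some genes that the rule or the marker lists take in are not reported here, but are counted in their lists. The members and the lists were chosen with earlier results of these data known. The procedure was tested on simulated data. Alternatives covered normalization, background correction, filters, outlier spots, blocks, variance model, test, the rule for several probes, and each mouse left out.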

Additional observations from a re-analysis of the deposited data

How the results depend on the processing

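Bdh1, Acat1 and Slc16a1 kept their direction in every alternative run, and by limma none was past an adjusted p of 0.05 in any of them. By the methods' t-test without adjustment, Bdh1 (0.43) and Slc16a1 (-0.84) were past the threshold and Acat1 was not. With each mouse left out the log2 fold change ran from 0.33 to 0.50 for Bdh1, from 0.10 to 0.34 for Acat1 and from -1.02 to -0.65 for Slc16a1. The limit for Slc16a1 is its low signal over background, and with probes well above background on all 6 arrays it was not tested. Oxct1, near 0, turned to -0.042 under normexp, and ran from -0.079 to 0.088 with each mouse left out.

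Counts of calls moved more, and the causes were not tested beyond what the number of arrays or probes sets. The 456 probes past an adjusted p of 0.05 became 126 to 282 with a mouse left out, and the 321 that also had a fold of 2 became 126 to 272. The transport list then had 0 to 1 genes, fatty acid oxidation 1 to 5 and the regulators 1 to 3. With no filter on dim probes the counts were 104 and 96 probes, and 0, 1 and 0 genes in these lists. With slide as a block, or within the slide that held both groups, the fit was the one without control mouse 1. The counts were 177 and 177 probes, with 1 transport gene (Slc16a5), 2 genes of fatty acid oxidation and 2 regulators. By the methods' t-test they were 3843 and 594 probes unadjusted, with 4 genes of the ketone list, 5 of transport, 17 of fatty acid oxidation, 7 regulators and 7 of amino acid breakdown, and 58 and 35 probes after Benjamini-Hochberg, with 0, 1 and 0 genes in transport, fatty acid oxidation and regulators. With a mean-variance trend 1 ketone list gene and 2 of amino acid breakdown were past the threshold, and with normexp 2 of the latter. The other way of counting detected probes, chosen after seeing the data, gave 22739 detected probes and left the 456 and 321 calls as they were.

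With the replicate number as a block, 63 and 63 probes, 0 transport genes, 0 genes of fatty acid oxidation and 1 regulator were past the threshold, and the log2 fold changes of Bdh1, Acat1 and Slc16a1 were 0.43, 0.24 and -0.84. Deviations of mice with the same number correlated at 0.0897, 0.00658 and -0.0916, compared with -0.114 to 0.108 for mice with different numbers. With 3 mice a group this check cannot show whether mice of the same number were handled together.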
